A study of Mus musculus with 6 samples.

Results

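Cells balance their water content by moving ions and small organic molecules called osmolytes, among them taurine, myo-inositol, sorbitol and neutral amino acids. The 6 genes described here belong to that system. Nfat5 encodes the tonicity-responsive transcription factor, Slc6a6 the taurine transporter, Slc5a3 the sodium/myo-inositol cotransporter, Akr1b3 aldose reductase, Slc38a2 a sodium-coupled neutral amino acid transporter and Aqp1 the water channel aquaporin 1. They were chosen by gene symbol. All 6 were found among the 12389 genes of the deposited per-library table, and all 6 passed the filter on low values, as did 12363 genes in all.

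The cells were primary vascular smooth muscle cells from mouse aorta, a cell type that lies in the middle coat of the artery and sets its tone. They were grown out of thoracic aorta pieces in serum-containing medium and harvested untreated at passage 6 or below. Of 6 libraries, 3 were titled wild type (WT) and 3 LRRC8A KO, from mice with a smooth muscle-specific knockout of LRRC8A. Neither the promoter that drove the deletion nor the animals' ages were given in the sources used here, and since the genotype entry of every sample is wild type, the titles alone set the groups. No treatment was applied, and the values are therefore those of cells in ordinary medium.

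When medium becomes hypertonic, NFAT5 enters the nucleus, binds tonicity elements in DNA and raises transcription of osmolyte transporters and of aldose reductase, which turns glucose into sorbitol. When cells swell, the volume-regulated anion channel, for which LRRC8A is the essential subunit, lets chloride and organic osmolytes such as taurine out. Members of the uptake and synthesis side were therefore read here in cells whose release channel was targeted.

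Values are given for replicates 1, 2 and 3 in that order, as scaled reads, the deposited read counts after division by a factor for each library. The targeted gene Lrrc8a held 2578, 2194 and 1221 scaled reads in WT, and 868, 673 and 506 in KO. Every KO library lay below every WT library, the direction that the titles give, with a limma log2 fold change of -1.51 (SE 0.34) that did not pass over all genes (adjusted p 0.999). In the authors' deposited table Lrrc8a passed, with a log2 ratio of -1.55 and an FDR of 0.0196. Of its exonic bases 66.2% are shared with the predicted gene Gm28035, so reads could be divided between them. Depth was estimated as the summed scaled reads of the deposited genes, divided by the fitted value of 1 read in each library. Reads outside those genes are left out. The estimate was 31.0 to 47.9 M reads, with the third replicate of both groups the deepest at 45.4 (WT) and 47.9 M reads (KO). The other 4 libraries lay at 31.0 to 35.9 M reads. All 7 smooth muscle markers looked up were in the table. Acta2, smooth muscle actin, ran from 10651 to 130984 scaled reads in WT and from 18724 to 59317 in KO, each time highest in replicate 3. Myh11, smooth muscle myosin heavy chain, was low, at 90.1, 152 and 1656 in WT and 41.7, 20.8 and 96.8 in KO. All 6 fibroblast markers were also present, with summed values of 18120 to 65470 in WT and 21035 to 58537 in KO. Of 6 leukocyte markers 4 were in the table, and Ptprc and Adgre1 were not. The 4 summed to 1995 to 2616 in WT and 834 to 1676 in KO, which do not overlap. Taken singly, only Lyz2 of the 4 separated the groups, as 8.43% of all tested genes did. The part of such cells in the results was not tested.

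RefSeq promoter sequences (build GRCm38.p6) matched Nfat5, Slc5a3, Aqp1 and Slc38a2, 4 of the 6 members. Those of Nfat5 and Slc5a3 are shown because these 2 members placed the 6 libraries in the same order, as described further on, and because the Slc5a3 start lies beside that of another gene. Both are on the forward strand and end just before an annotated exon, which for Slc5a3 is that of the neighbour. The Nfat5 sequence spans chr8:107293220-107293469 and the Slc5a3 sequence chr16:92058072-92058269, with capitals marking the 5-letter core GGAAA of Rel-family sites on either strand.
Nfat5: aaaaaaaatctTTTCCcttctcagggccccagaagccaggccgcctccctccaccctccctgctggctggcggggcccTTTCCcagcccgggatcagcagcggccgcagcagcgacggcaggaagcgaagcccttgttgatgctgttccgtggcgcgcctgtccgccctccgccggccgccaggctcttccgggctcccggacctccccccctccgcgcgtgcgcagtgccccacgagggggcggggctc
Slc5a3: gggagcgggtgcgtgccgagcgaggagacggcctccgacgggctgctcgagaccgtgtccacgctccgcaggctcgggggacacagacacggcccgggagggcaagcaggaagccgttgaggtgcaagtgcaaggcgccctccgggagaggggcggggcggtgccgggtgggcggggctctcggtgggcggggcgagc

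In the 250 bases before the start, Nfat5 and Aqp1 each held 2 copies of GGAAA, counted on both strands, and Slc5a3 and Slc38a2 held 0. All 250 bases were searched in each, including those left off the printed Slc5a3 sequence because they are exonic in its neighbour. Among 32851 RefSeq promoter windows of that length, 55.6% held at least 1. The longer core TGGAAA, which contains GGAAA, was in none of the 4 windows and in 18.6% of all. The full tonicity element consensus, which contains both, was also in none of the 4 and in 4.3% of all. These windows leave out introns and distal elements.

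None of the 6 genes passed in the comparison of KO with WT. The fit was limma on log2(scaled value + 2), a scale that understates the change of low genes, with adjustment over all genes tested and a threshold of 0.05. It called 0 members at an adjusted p of 0.999 each and 0 genes in all, 0% of those tested, with 447 genes (3.62%) at an unadjusted p under 0.05 and 0 members among them. In no member did the KO and WT libraries separate completely, while they did for 8.43% of tested genes. The authors' deposited table passed 0.525% of its genes at a false discovery rate (FDR) under 0.05 and none of the 6, whose FDR in the authors' deposited table ran from 0.747 to 1. The median log2 fold change of the 6 was -0.42, with 5 of 6 (83.3%) below 0. Over all tested genes the median was 0.00, with 49.6% below 0.

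**Figure D1:**
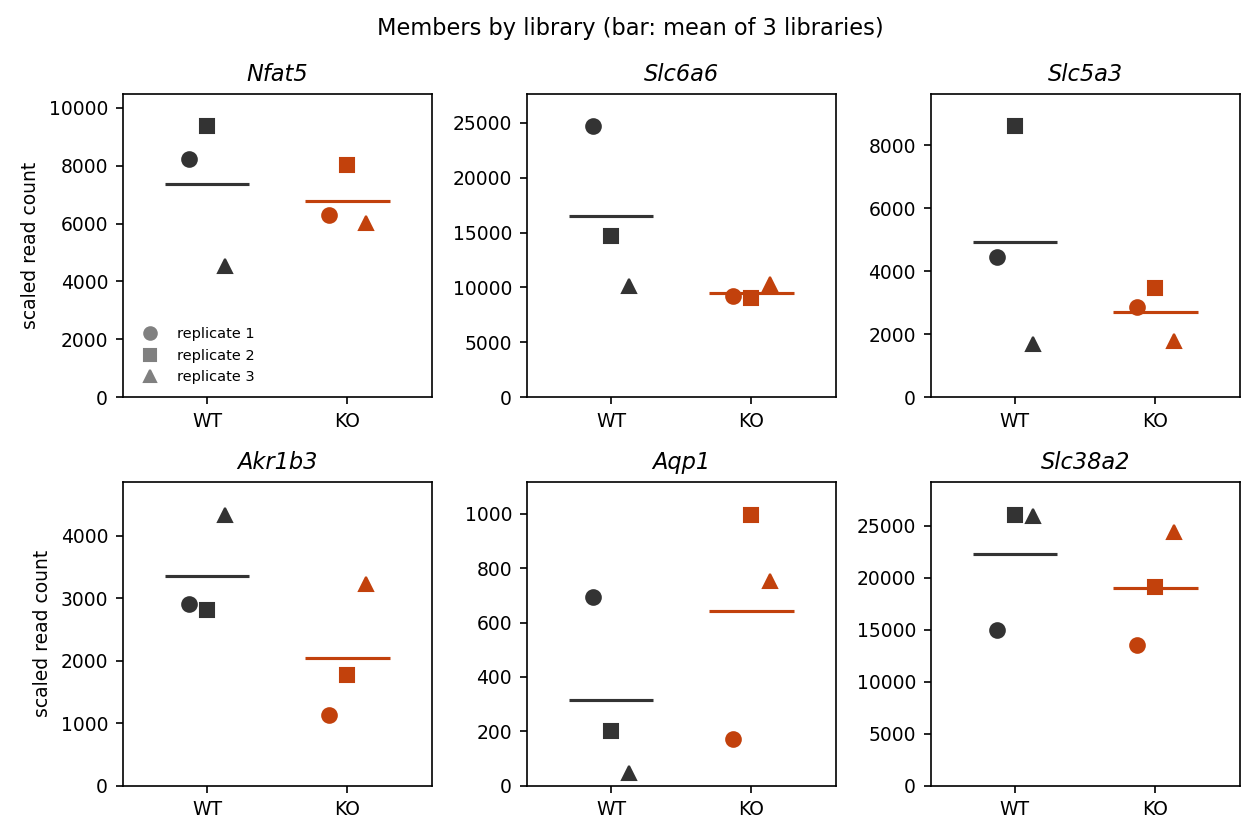
Scaled read counts (vertical axes, linear from 0) of the 6 members in each WT and KO library, 1 panel per gene. Points are libraries, shaped by replicate number, and bars are means of 3. In every panel at least 1 KO point lies within or across the WT range, and Aqp1 runs from 47.5 to 997.

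Nfat5 (ENSMUSG00000003847, GRCm38 chromosome 8, 107293470 to 107379517) is the transcription factor of the group. The WT libraries held 8231, 9376 and 4536 scaled reads, and the KO libraries 6285, 8033 and 6008. WT replicate 3 was the lowest of the 6 libraries and WT replicate 2 the highest, so that the KO libraries all lay inside the WT range. Mean values were 7381 ± 2530 (SD, n = 3) for WT and 6775 ± 1098 (SD, n = 3) for KO. The limma log2 fold change, KO over WT, was -0.07 (SE 0.31), with a 95% interval from -0.80 to 0.66. In fold terms that interval runs from 0.574 to 1.58, so neither a fall nor a rise within it could be told from no change. Leaving out WT replicate 1 turned the sign (0.04), as did leaving out WT replicate 2 (0.14) and, in KO, replicate 3 (0.01), and without WT replicate 3 the value was -0.39 (SE 0.23).

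Slc6a6 (ENSMUSG00000030096, chromosome 6, 91684053 to 91759066), which brings taurine into the cell with sodium and chloride, held 24706, 14648 and 10151 scaled reads in the WT libraries. The KO libraries held 9247, 9052 and 10270. The KO libraries were close together, with the highest 1.135 times the lowest, against 2.43 times in WT. The groups overlapped only because KO replicate 3 lay just above WT replicate 3. Mean values were 16502 ± 7453 (SD, n = 3) for WT and 9523 ± 654 (SD, n = 3) for KO, and the log2 fold change was -0.70 (SE 0.34), with a 95% interval from -1.49 to 0.09. The unadjusted limma p was 0.0753. An exact two-sided permutation test over the libraries gave p = 0.2, where 0.1 is the smallest that 3 against 3 allow. In the authors' deposited table the log2 ratio of Slc6a6 was -0.79, at a p of 0.028 and an FDR of 0.747. There 657 of 12389 genes had an unadjusted p under 0.05, and Slc6a6 was the only member among them. The estimate depended on the WT libraries: without WT replicate 1 it was -0.36 (SE 0.25), and without WT replicate 3 it was -1 (SE 0.29).

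Slc5a3 (ENSMUSG00000089774, chromosome 16, 92058322 to 92087473), which takes up myo-inositol with sodium, held 4447, 8606 and 1676 scaled reads in the WT libraries. The KO libraries held 2848, 3449 and 1793. Replicate 3 was the lowest library of both groups. WT replicate 2 stood at 5.13 times WT replicate 3, and the KO values fell between these. Mean values were 4910 ± 3488 (SD, n = 3) for WT and 2697 ± 838 (SD, n = 3) for KO, with a log2 fold change of -0.62 (SE 0.60) and a 95% interval from -2.05 to 0.80. Leaving out WT replicate 2 brought the estimate to -0.07 (SE 0.49), and leaving out WT replicate 3 to -1.25 (SE 0.40). KO replicate 3 also weighed on it, with -0.35 (SE 0.66) in its absence. Slc5a3 begins inside the gene of the mitochondrial ribosomal protein Mrps6, on the same strand, and 159 of its 10913 exonic bases (1.5%) are exonic in Mrps6 and in the predicted gene Gm49711. Reads in that stretch could be assigned to either gene. Mrps6 did not follow Slc5a3 across the libraries, with 2851, 4638 and 3999 scaled reads in WT and 2267, 2175 and 5031 in KO.

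Akr1b3 (ENSMUSG00000001642, chromosome 6, 34302434 to 34317478, reverse strand), the aldose reductase that makes sorbitol, held 2909, 2812 and 4342 scaled reads in the WT libraries. The KO libraries held 1137, 1777 and 3225. KO replicates 1 and 2 lay below all WT libraries, and KO replicate 3 lay above 2 of the 3. Mean values were 3354 ± 856 (SD, n = 3) for WT and 2046 ± 1070 (SD, n = 3) for KO. The log2 fold change was -0.81 (SE 0.39), with a 95% interval from -1.74 to 0.11 and an unadjusted p of 0.0764. No label says what the replicate numbers mark. Within same-numbered libraries KO minus WT was below 0 each time, at -1.35, -0.66 and -0.43 on the log2 scale. Akr1b3 and Slc38a2 were below 0 in all 3 such differences, 2 of 6 members, against 15% of all tested genes. With the replicate number as a block, Akr1b3 had an SE of 0.23 and an unadjusted p of 0.0124, and it was the only member under 0.05, where 7.42% of all genes were. Its adjusted p with the block was 0.529, and the block called 0 of 12363 genes (0%). Leaving out KO replicate 1 moved the estimate to -0.46 (SE 0.35), and without KO replicate 3 it was -1.21 (SE 0.31).

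The related aldo-keto reductases Akr1b8 and Akr1b10 have similar sequences, so reads could have been divided among them and their values are uncertain to that extent. Akr1b8 had a mean of 2633 scaled reads in WT and 1981 in KO, with a log2 fold change of -0.37 (SE 0.27). Akr1b10 had 936 and 695, with -0.45 (SE 0.28). Both lay below 0 as Akr1b3 did, and neither passed.

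Slc38a2 (ENSMUSG00000022462, chromosome 15, 96687392 to 96699730, reverse strand), which carries small neutral amino acids into the cell with sodium, held 14917, 26063 and 25891 scaled reads in the WT libraries. The KO libraries held 13498, 19054 and 24384. Replicate 1 was the lowest library of both groups. Mean values were 22290 ± 6386 (SD, n = 3) for WT and 18979 ± 5444 (SD, n = 3) for KO, and the log2 fold change was -0.23 (SE 0.34), with a 95% interval from -1.02 to 0.56. All 3 same-numbered differences were below 0, at -0.14, -0.45 and -0.09. The estimate ran from -0.49 without WT replicate 1 to -0.002 without KO replicate 1, and it was -0.09 without WT replicate 2, -0.10 without WT replicate 3 and -0.43 without KO replicate 3.

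Aqp1 (ENSMUSG00000004655, chromosome 6, 55336432 to 55348555), the water channel that is abundant in endothelium and red cells, was the 1 member above 0. The WT libraries held 695, 201 and 47.5 scaled reads, and the KO libraries 173, 997 and 752. The highest library had 14.6 times the lowest in WT and 5.76 times in KO. Mean values were 314 ± 338 (SD, n = 3) for WT and 641 ± 423 (SD, n = 3) for KO. The log2 fold change was 1.41 (SE 1.08), with a 95% interval from -1.19 to 4.02. Same-numbered libraries disagreed in direction, at -1.99, 2.30 and 3.93. The estimate was 0.44 (SE 0.92) without WT replicate 3, 2.35 (SE 0.97) without WT replicate 1 and 2.18 (SE 1.08) without KO replicate 1, and it was 0.93 (SE 1.23) without KO replicate 2.

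Aqp1 also marks other cell types, whose share of a culture cannot be told from the RNA per cell in bulk libraries. Of 7 endothelial markers only Kdr was in the table. Pecam1, Cdh5, Tek, Emcn, Vwf and Tie1 were not among its genes. Kdr, a vascular endothelial growth factor receptor, held 433, 141 and 42.7 scaled reads in WT, ranked as Aqp1 was, and 105, 423 and 21.3 in KO, where KO replicate 3 was low for Kdr and high for Aqp1. Of 5 erythroid markers 0 were in the table. The 4 mesothelial and epithelial markers found, of 7, summed to 5350 to 9801 in WT and to 5766, 5558 and 1098 in KO replicates 1 to 3. Of these 4 markers 3 had estimates below 0, while Krt19 was above 0 at 1.16 (SE 0.84), and 0 passed. The part of such cells in the Aqp1 values was not tested.

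**Figure D2:**
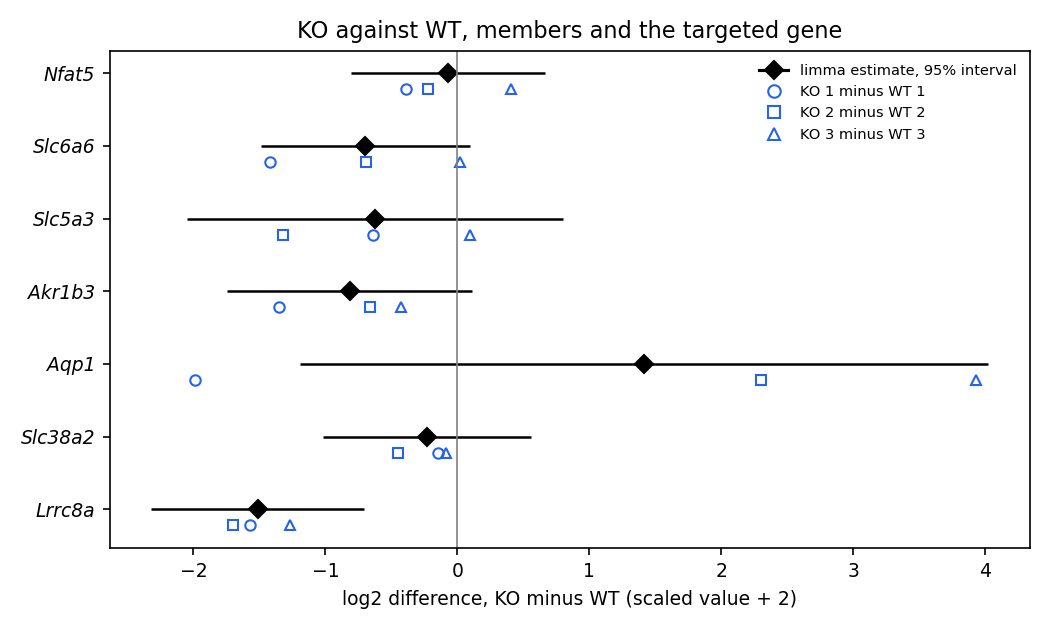
Log2 differences of KO minus WT (horizontal axis, on scaled value + 2) for the 6 members and the targeted gene Lrrc8a. Diamonds with lines are limma estimates with 95% intervals, and open symbols are the differences of same-numbered libraries. All 6 members' intervals cross 0, that of Lrrc8a runs from -2.32 to -0.71, and the 3 Aqp1 differences run from -1.99 to 3.93.

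Levels can be set against each other only per length. Per kilobase of the principal transcript (GENCODE M21, GRCm38), the WT means were 4783 scaled reads for Slc38a2, 2668 for Slc6a6, 2418 for Akr1b3, 552 for Nfat5, 450 for Slc5a3 and 120 for Aqp1. In KO the order was the same, at 4073, 1539, 1475, 506, 247 and 244. The library ranges of neighbours overlapped for Slc6a6 and Akr1b3 in both groups and for Slc5a3 and Aqp1 in both. Slc38a2 (2896 to 5233 in KO) stood clear of Slc6a6 (1463 to 1660) in KO and not in WT, and Nfat5 (449 to 600) stood clear of Slc5a3 (164 to 316) in KO and not in WT. Thus the 3 genes for taurine, sorbitol and amino acids were read more often per length than the factor, the inositol carrier and the water channel. The place of Akr1b3 depends on the transcript taken, since over all 8384 annotated exonic bases, in place of 1387, its WT mean was 400.

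The members' spread was divided between genotype and replicate number. With 3 numbers and 2 genotypes, replicate number takes the larger share more often even where neither has an effect, so the shares are descriptions. In a decomposition of the log2 values over the 6 libraries, genotype took 1.0% of the variance of Nfat5, 8.9% of Slc38a2, 15.0% of Slc5a3, 21.5% of Aqp1, 41.9% of Akr1b3 and 46.2% of Slc6a6. Replicate number took 75.1%, 86.7%, 72.0%, 11.3%, 48.3% and 21.2% of the same genes. It exceeded genotype in 4 of 6 members and in 78.7% of all tested genes, where the median shares were 10.3% for genotype and 54.9% for replicate number. In Slc6a6 and Aqp1 genotype had the larger share. In Aqp1 67.2% of the variance lay with neither, and its residual SD of 1.65 was at the 95.9th percentile of all tested genes, with those of Slc5a3, Akr1b3, Slc6a6, Slc38a2 and Nfat5 at 87.7, 76.3, 65.2, 63.3 and 60.6.

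Nfat5 and Slc5a3 placed the 6 libraries in the same order: WT replicate 2 highest, then WT replicate 1, KO replicate 2, KO replicate 1, KO replicate 3 and WT replicate 3. Of the other tested genes 29 (0.235%) had the order of Nfat5. Over the 6 libraries Pearson's r of the log2 values was 0.91, and 0.914% of genes had a higher r with Nfat5 than Slc5a3 did. With Nfat5 the other members had r of 0.58 (Aqp1), 0.51 (Slc6a6), -0.20 (Slc38a2) and -0.29 (Akr1b3). Among the 5 other members, Slc5a3 thus had the highest r with Nfat5. Akr1b3 and Slc38a2 had r of 0.73, while 5.84% of genes had a higher r with Akr1b3 and 8.08% a higher r with Slc38a2. Both were above their own mean in replicate 3 of both groups, though the highest Slc38a2 library was WT replicate 2. The points share libraries and depth, and these values are descriptions over 6 libraries that were looked at after the values were known.

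Depth and transcript length were set beside the order shared by Nfat5 and Slc5a3. The deepest libraries, replicate 3 of both groups, were the lowest for Nfat5 and Slc5a3, whose principal transcripts of 13.38 and 10.91 kb are the longest among the members. Over the 587 tested genes with transcripts of 8 kb or more, the median deviation from a gene's own mean was -0.14 (WT) and -0.13 (KO) in replicate 3, against 0.16 and 0.03 in replicate 1. The 2751 genes under 2 kb went the other way, at 0.19 and 0.13 in replicate 3. Akr1b3, the shortest at 1.39 kb, was highest there. The members' own deviations were larger, at -0.60 and -0.20 for Nfat5, -0.94 and -0.85 for Slc5a3 and 0.81 and 0.38 for Akr1b3 in WT and KO replicate 3. Not all members went with their length class. In the same 2 libraries the 4 to 8 kb class was at -0.116 and -0.098. Slc6a6 (6.19 kb) was at -0.255 and -0.238 there, but Slc38a2 (4.66 kb) was at 0.376 and 0.289. Nfat5 and Slc5a3 were highest in WT replicate 2, at 0.446 and 1.414, where the class of 8 kb or more was at 0.059. What part length or depth had in them was not tested. Of the 7 smooth muscle markers, 6 were highest in replicate 3 of both groups, and Smtn was so in KO and not in WT.

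**Figure D3:**
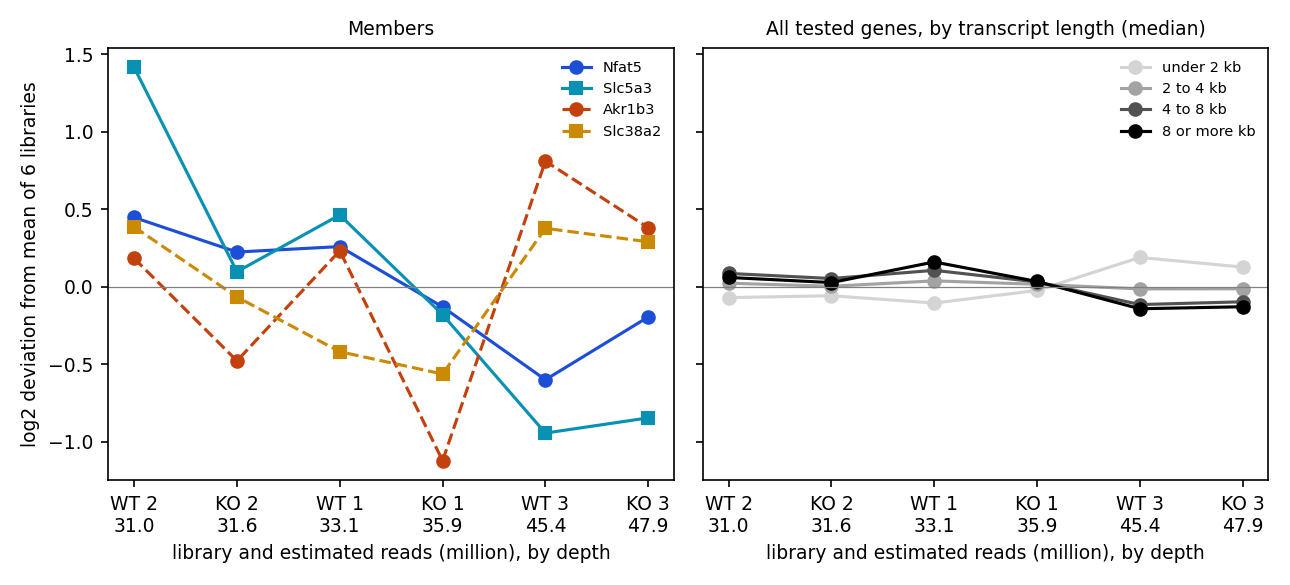
Log2 deviation from the mean of the 6 libraries (vertical axes), with libraries ordered by estimated depth in M reads. The left panel shows 4 members and the right the median of all tested genes in 4 classes of transcript length. Nfat5 and Slc5a3 are below 0 in both deepest libraries, Akr1b3 and Slc38a2 above 0, and the length classes stay between -0.14 and 0.19.

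Without replicate 3 of both groups, a setting added after the values were seen, 5 of 6 members stayed below 0 and 0 passed. Slc6a6 was then at -1.06 (SE 0.31), Akr1b3 at -1.01 (SE 0.27) and Slc5a3 at -0.98 (SE 0.36), and these 3 had an unadjusted p under 0.05, as did 6.21% of all genes. Nfat5 was at -0.31 (SE 0.23), Slc38a2 at -0.30 (SE 0.37) and Aqp1 at 0.16 (SE 1.02). Their adjusted p ran from 0.791 to 0.985. With array quality weights, which weighted WT replicate 2 most, 4 members (Slc6a6, Slc5a3, Akr1b3 and Slc38a2) had an unadjusted p under 0.05, as did 18.5% of all genes, and again 0 passed.

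Genes that surround these members were taken from lists of 75 genes in 8 groups. None of their tested members passed an adjusted p of 0.05 with or without the block. With the block, an unadjusted p under 0.05 was found for 1 of 10 NFAT5 regulators, 1 of 7 further tonicity-responsive genes and 2 of 10 osmolyte enzymes. It was also found for 1 of 4 osmolyte transporters, 4 of 14 amino acid response genes and 0 of the other lists. Over all genes 7.42% had such a p. All 10 regulators of NFAT5 were tested, and their median was 0.07 on the log2 scale, with 7 above 0. The small GTPase Rac1 had 0.24 (SE 0.20), the RNA helicase Dhx9 0.07 (SE 0.20) and the phospholipase Plcg1 0.15 (SE 0.21). Akap13, an A-kinase anchoring protein, was the 1 with an unadjusted p under 0.05 and was picked out after its values were seen. It held 3216, 3272 and 3210 scaled reads in WT and 5178, 5036 and 3646 in KO, with a log2 fold change of 0.50 (SE 0.20). Every KO library lay above every WT library. Over all tested genes 8.43% separated completely, and 3.62% had an unadjusted p under 0.05 without the block.

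Of 12 further tonicity-responsive genes 7 were tested, with a median of -0.02 and 4 below 0. The betaine transporter gene Slc6a12, a classical NFAT5 target of kidney, was not among the genes of the table, nor were Slc5a11, Slc14a2, Aqp2 and Ranbp3l. The calcium-binding protein S100a4 had 0.17 (SE 0.36), the inducible chaperone Hspa1b 0.02 (SE 0.66) and the chaperone Hsph1 0.22 (SE 0.37). Hspa1b shares near-identical sequence with Hspa1a, so its reads are uncertain. It was high in WT replicate 2 at 11860 scaled reads, with the other WT libraries at 2520 and 2642 and KO at 3723, 3057 and 7166. None of the 7 aquaporins looked up beside Aqp1 was in the table.

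Enzymes that make or break down osmolytes, 10 tested of 14, had a median of 0.01, with 4 below 0. Aldh7a1, which oxidizes betaine aldehyde, had -0.28 (SE 0.29), the cysteamine dioxygenase Ado 0.00 (SE 0.19) and Isyna1, which makes the precursor of myo-inositol, -1.04 (SE 0.79). Isyna1 held 4553, 1896 and 1017 scaled reads in WT and 2894, 616 and 564 in KO, below its same-numbered WT library each time. With the replicate block Isyna1 had an unadjusted p of 0.00516 (adjusted p 0.425). Gdpd5, a glycerophosphocholine phosphodiesterase, was the 1 gene of this list with an unadjusted p under 0.05 without the block and was picked out after its values were seen. It had 398, 335 and 154 in WT and 770, 622 and 395 in KO, a log2 fold change of 1.06 (SE 0.43), with KO replicate 3 just below WT replicate 1. Each KO library of Gdpd5 lay above its same-numbered WT library. With the replicate block Gdpd5 had an unadjusted p of 0.00327 (adjusted p 0.378). Over all tested genes 3.62% had an unadjusted p under 0.05 without the block and 7.42% with it.

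Of 7 other osmolyte transporters 4 were tested, with a median of -0.31 and 3 below 0. The choline transporter-like gene Slc44a2 had -0.39 (SE 0.24), the proton-coupled amino acid transporter Slc36a1 -0.59 (SE 0.28) and Slc44a1 0.17 (SE 0.57). The relatives of Slc38a2, 5 tested of 8, were all below 0, with a median of -0.22. Slc38a10 had 22258, 18091 and 15476 in WT and 13694, 11192 and 14526 in KO, every KO library below every WT library, and a log2 fold change of -0.49 (SE 0.24). Complete separation was found for 8.43% of all tested genes. Slc38a1 had -0.44 (SE 0.38) and Slc38a7 -0.22 (SE 0.39).

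Slc38a2 is also induced when amino acids run short, through the transcription factor ATF4. The 14 amino acid response genes had a median of -0.15, with 8 (57.1%) below 0. The serine synthesis gene Psat1 had 0.41 (SE 0.28), Atf4 0.03 (SE 0.19) and Slc3a2, the heavy chain of amino acid exchangers, -0.28 (SE 0.27). The 2 with an unadjusted p under 0.05, picked out after their values were seen, both lay below WT in every KO library. They were the glutathione-degrading enzyme Chac1 at -1.22 (SE 0.40) and the neutral amino acid transporter Slc1a4 at -0.50 (SE 0.19). Over all tested genes 3.62% had such a p, and 8.43% separated the groups completely. With the replicate block 4 of the 14 had an unadjusted p under 0.05, against 7.42% of all genes. They were Chac1, Slc1a4, the cystine transporter Slc7a11 and the pseudokinase Trib3, all with estimates below 0 and none passing. Slc7a11 was at -0.83 (SE 0.25) and Trib3 at -1.17 (SE 0.31) in that fit.

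**Figure D4:**
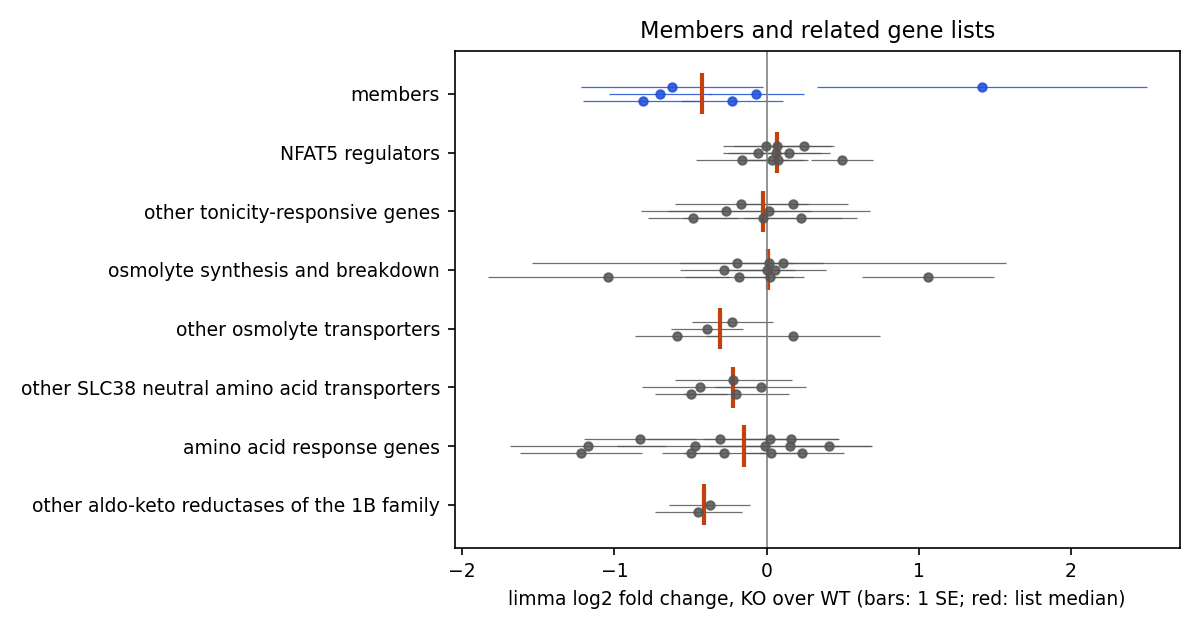
Limma log2 fold changes (horizontal axis, KO over WT) of the 6 members and of the tested genes in 7 related lists. Points are genes, lines are 1 SE, and red bars are list medians, which run from -0.42 for the members to 0.07 for NFAT5 regulators. The other aquaporins are absent because 0 were in the table.

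By a fixed rule, the 2 genes most like each member over the 6 libraries were taken from 8580 genes with a mean of at least 500 scaled reads, by Pearson's r of log2 values. They were Etv5 and Smg1 for Nfat5 (r = 0.99 each), Ago2 and Pde4a for Slc6a6 (0.98 each) and Kdm7a and Rc3h1 for Slc5a3 (0.99 each). For Akr1b3 they were Polr1a and Eprs (0.97 each), for Aqp1 Phf14 (0.98) and Chst1 (0.97), and for Slc38a2 Foxf2 (0.99) and Cars (0.98). With 6 points and 8580 genes, r of this size is a description of the libraries.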

How the data were processed

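Stranded, poly(A)-selected paired-end RNA libraries were run on a NovaSeq (the labels' protocols). Per the submitters' processing notes, the names STAR, Partek, DESeq2, GRCm39 and mm39 are listed, with no version or role stated. Counting settings were not given in the sources used here. Called raw, the deposited table used holds a scaled signal: fractional read counts divided by a factor per library, with 1 read worth 0.712 to 1.185. Only 81.9% to 92.3% of values up to 50 reads lay within 0.05 of a whole number, so counts were not recovered. The authors' deposited comparison table gives p-values, FDR and log2 ratios. Gene starts matched GENCODE M21 (GRCm38) for 12341 of 12385 genes, and positions are GRCm38.

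The test was limma 3.58.1 (R 4.3.3, statmod 1.5.0; trend, robust) on log2(value + 2), for genes reaching 10 in 3 or more libraries, with genotype alone and Benjamini-Hochberg adjustment over 12363 genes, two-sided; it was run on simulated data too. Members, lists and tests were chosen with earlier results of these data known. Named beside the members were the 3 highest tested genes of each list and any passing (0 did); other genes, named for an unadjusted p, separated groups or the block, were picked after their values were seen. Alternatives were library scalings, filters, pseudocounts of 1 and 10, the other table, prior settings, quality weights, the replicate block, each library left out and, added later, replicate 3 of both groups left out. Same-numbered libraries deviated together (correlations across genes of 0.43, 0.15 and 0.39 for replicates 1 to 3), so the numbers were taken as pairs from the data, though no label says what they mark. Differently numbered libraries of the 2 groups had correlations of -0.403 to 0.022. The block and the same-numbered differences rest on this choice of pairs, made on the same values.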

Additional observations from a re-analysis of the deposited data

How the results depend on the processing

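No member passed an adjusted p of 0.05 under any of the 20 other settings, and the replicate block changed no call. The lowest adjusted p was 0.159, for Slc6a6 with array quality weights. With them 4 members had an unadjusted p under 0.05 (Slc6a6, Slc5a3, Akr1b3 and Slc38a2), as did 18.5% of all genes. Those weights ranged from 0.361 for KO replicate 3 to 7.98 for WT replicate 2, and with them Lrrc8a passed at a log2 fold change of -1.62 (adjusted p 0.045), which it did not with the replicate block added (-1.61, adjusted p 0.0562). Genes called over the whole table numbered 30 with the weights, 5 with the weights and the replicate block (Fibin higher, and Fmod, Gfpt2, Icam1 and Igfbp3 lower, in KO), 0 with the block alone (917 at an unadjusted p under 0.05) and 0 to 1 with each library left out, the 1 being Glipr1 without KO replicate 1. The cause of these differences was not tested.

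Nfat5 was the only member whose sign turned, with log2 fold changes from -0.39 to 0.14 over the 6 fits that leave out a library. Scalings, filters, pseudocounts and the other table kept the sign of every member tested. Aqp1 was not tested where a value of 50 was required in all 6 libraries. With estimated depths of 31.0 M reads or more, and at least 60 reads for Aqp1 in its lowest library, counts were not sparse for the members. Their SEs ran from 0.31 to 1.08, against a median of 0.29 over all genes.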
